A study of Mus musculus with 6 samples.

Results

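The genes described belong to the bone morphogenetic protein (BMP) pathway and were measured in mouse lens capsules at cataract surgery and after it. They are the ligand genes Bmp2, Bmp4, Bmp6 and Bmp7, the secreted antagonist gene Grem1, and the inhibitor of differentiation genes Id1, Id2, Id3 and Id4. They were chosen by name, as 9 of the 56940 genes counted in each library, and all 9 were among the 14676 genes with enough counts to be tested. All capsules came from wildtype C57BL/6 mice and carried their attached lens epithelial cells. In the operation the fiber cell mass is removed through the front of the lens and the capsule stays in the eye. The 0 h group was taken at the operation and the 5 day group 5 days after it, with 3 libraries a group and a pool of 5 capsules in each library. Each mouse was operated on in 1 eye and then, after 5 days, in the other, which gave the 0 h capsule, so the 0 h group is no group of unoperated animals. The labels do not say which pools share mice, and the p-values measure the spread between these pools.

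BMPs are secreted growth factors of the TGF-beta superfamily. They bring together type I and type II receptors, which phosphorylate SMAD1, SMAD5 and SMAD9, and these enter the nucleus with SMAD4. Gremlin-1, the product of Grem1, binds BMP2, BMP4 and BMP7 outside the cell and keeps them from their receptors. The Id genes are the best known direct targets of the pathway, although other signals also control them. Id proteins are helix-loop-helix proteins without a DNA-binding region, and they tie up the E proteins and other basic helix-loop-helix factors. BMP4 and BMP7 are needed for the lens to form, and in cultured lens epithelial cells BMP7 has been described as opposing the TGF-beta-driven change to a mesenchymal form.

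The libraries held 6207387 to 9774343 gene counts. Libraries of the same time correlated at 0.973 to 0.985 in log2 (CPM + 1), and libraries of different times at 0.817 to 0.861. Of 8 lens epithelium markers, present in every library, 5 were called lower at 5 days (Foxe3 -1.37, Cdh1 -1.74, Pitx3 -1.68, Cryaa -2.48 and Npnt -4.66), Pax6 was called higher (0.28), and Six3 (0.01) and Sox2 (-0.15) did not pass the test. Their summed level, most of it Cryaa, lay between 59500 and 72500 CPM at 0 h and between 6220 and 17400 CPM at 5 days. CPM are counts scaled to a common library size with TMM factors. Changes are given as log2 fold changes, 5 days over 0 h, and SE is the standard error.

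Of the 9 genes, 2 were higher at 5 days (Bmp6 and Grem1), 5 were lower (Bmp7, Id1, Id2, Id3 and Id4) and 2 did not pass edgeR's quasi-likelihood test at a Benjamini-Hochberg adjusted p under 0.05 (Bmp2 and Bmp4). Across all tested genes 47.6% passed, 25.1% higher and 22.5% lower at 5 days, and the groups did not overlap for 58.1%. The members' median log2 fold change was -0.48, against -0.01 over all tested genes, and for 7 of the 9 the groups did not overlap. Bmp6 and Grem1 reached the 1.22 CPM that the low-count filter asks of 3 libraries only through the 5 day libraries, so they could enter the test only as genes high at 5 days, and their calls are no independent support for a rise. The plot of the 9 genes by library shows each value.

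**Figure D1:**
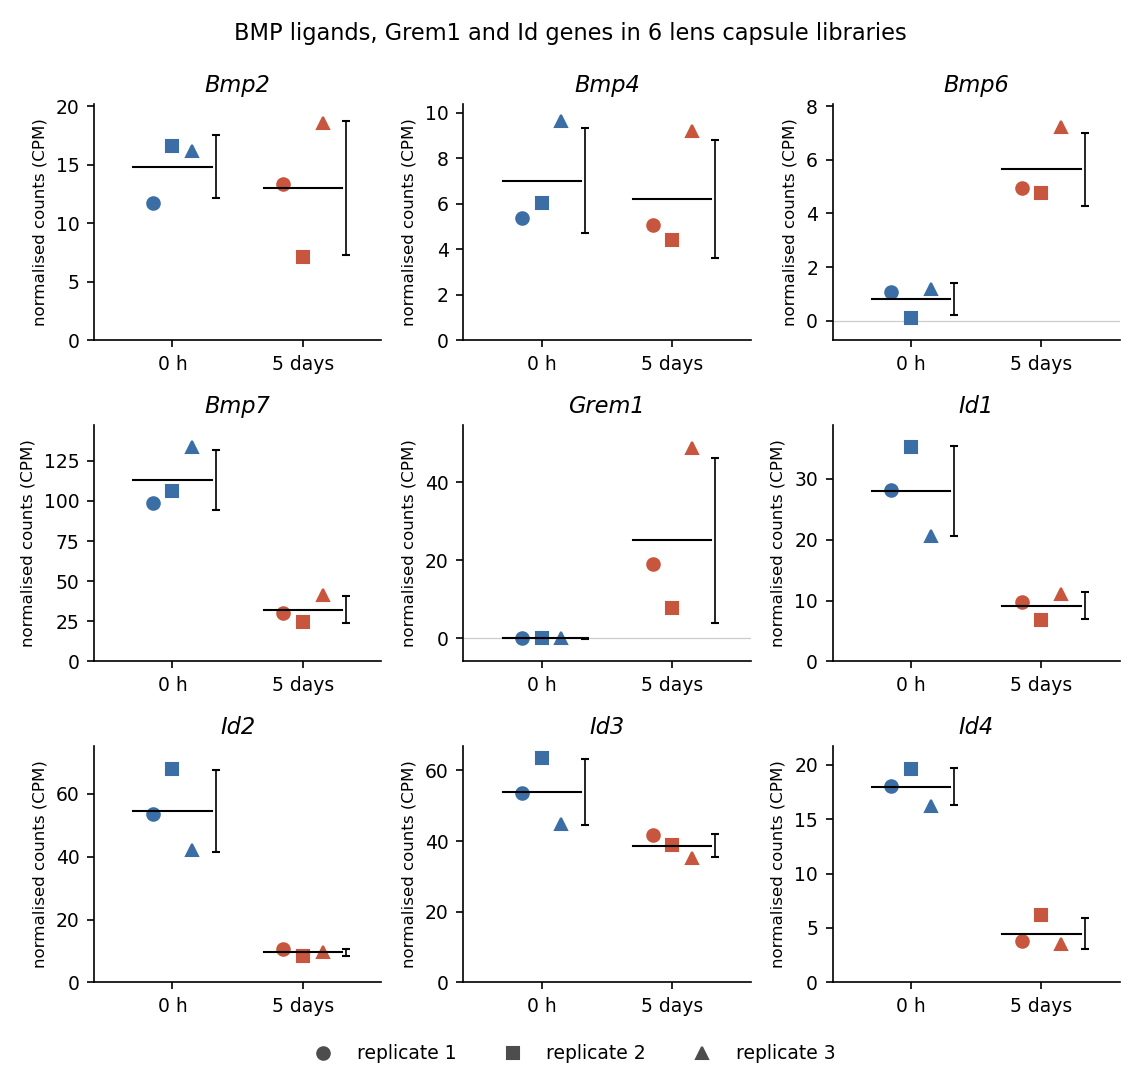
Normalised counts (CPM, vertical axis) of the 9 genes in each library at 0 h (blue) and 5 days (red). Marker shapes give the replicate number, horizontal lines the mean of 3 libraries and bars 1 SD. The groups are separate for all genes except Bmp2 and Bmp4.

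Bmp7 had the highest level per length of the 4 ligand genes at 0 h and was the only one of them called lower. Bmp7 (ENSMUSG00000008999) stood at 98.99, 106.2 and 133.9 CPM in replicates 1, 2 and 3 at 0 h, and at 30.4, 24.74 and 41.28 CPM at 5 days. The highest 5 day library lay well below the lowest 0 h library. Its mean went from 113.0 ± 18.4 to 32.14 ± 8.41 CPM (SD, n = 3), 3.5-fold lower, with a log2 fold change of -1.81 (SE 0.18, 95% interval -2.19 to -1.43, edgeR quasi-likelihood test, Benjamini-Hochberg adjusted p = 4.49e-06). In bulk RNA, fewer cells of a type and less RNA per cell cannot be told apart, here and for every gene below.

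Bmp6, a ligand close to BMP7 in sequence, moved the other way. Bmp6 (ENSMUSG00000039004) had 8, 1 and 10 counts at 0 h, or 1.077, 0.1097 and 1.192 CPM, and 31, 38 and 66 counts at 5 days, or 4.934, 4.772 and 7.226 CPM. All 0 h libraries were near the detection limit and all 5 day libraries were above them. The mean rose from 0.7932 ± 0.595 to 5.644 ± 1.37 CPM (n = 3), 7.2-fold, with a log2 fold change of 2.85 (SE 0.56, 95% interval 1.63 to 4.07, edgeR quasi-likelihood test, Benjamini-Hochberg adjusted p = 0.00117). In the GENCODE M21 annotation 224 exon bases of Bmp6 overlap Txndc5 on the opposite strand, and Txndc5 went from 805, 1014 and 926 counts to 1371, 1536 and 2402. Whether the counting used strand is not given in the sources used here, and a share of Txndc5 reads in the Bmp6 counts was not tested.

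Bmp2 and Bmp4, close relatives within the ligand family, did not pass the test. Bmp2 (ENSMUSG00000027358) stood at 11.72, 16.57 and 16.21 CPM at 0 h and at 13.37, 7.158 and 18.61 CPM at 5 days. Both the highest and the lowest of the 6 libraries were 5 day libraries. The log2 fold change was -0.18 (SE 0.29), with a 95% interval of -0.82 to 0.46 (edgeR quasi-likelihood test, Benjamini-Hochberg adjusted p = 0.64), and it was 0.12 without 5 day replicate 2. Bmp4 (ENSMUSG00000021835) stood at 5.387, 6.034 and 9.657 CPM at 0 h and at 5.093, 4.395 and 9.197 CPM at 5 days. In each group replicate 3 was the high library and the other replicates lay close together. The log2 fold change was -0.16 (SE 0.34), with a 95% interval of -0.91 to 0.59 (edgeR quasi-likelihood test, Benjamini-Hochberg adjusted p = 0.732). It was 0.13 without 0 h replicate 3 and 0.05 without 5 day replicate 2. These intervals leave room for changes of either sign.

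Ratios of counts within a library need no scaling between libraries. The log2 ratio of Bmp6 to Bmp7 was -6.44, -9.33 and -6.74 at 0 h and -2.6, -2.36 and -2.51 at 5 days, a difference of the means of 5.01, or 4.1 without 0 h replicate 2, which had 1 Bmp6 count. Every 5 day ratio was above every 0 h ratio. The exact two-sided permutation p was 0.1, the smallest that 3 against 3 libraries can give, or 0.15 adjusted over the 6 ratios compared. Bmp6 passed the low-count filter only through the 5 day libraries and Bmp7 was called lower. The separation of this ratio is therefore no further support for either change. The log2 ratio of Bmp4 to Bmp2 averaged -1.1 at 0 h and -1.03 at 5 days with overlapping groups (difference 0.07, exact permutation p = 0.7, adjusted 0.7).

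Grem1, scarcely detected at 0 h, was present in every 5 day library at unequal levels. The counts of Grem1 (ENSMUSG00000074934) numbered 1, 0 and 0 at 0 h against 119, 62 and 445 at 5 days, which gives 0.1347, 0 and 0 CPM against 18.94, 7.786 and 48.72 CPM. The 5 day libraries did not overlap the 0 h libraries, but they spread widely among themselves, with a mean of 25.15 ± 21.2 CPM (n = 3). The log2 fold change was 8.83 (SE 1.04, 95% interval 6.57 to 11.09, edgeR quasi-likelihood test, Benjamini-Hochberg adjusted p = 2.18e-05). Because this rests on 1 count at 0 h, the ratio of the pooled levels, 667.4, has a 95% counting interval of 119.4 to 26400. Without the 0 h library that holds that count, replicate 1, Grem1 was at least 156.2-fold higher with the 0 h group set to a floor of 3 counts, and the fitted log2 value was 10.69. Without 5 day replicate 3 it was 7.88. The counting interval and the floor cover counting error only, and the floor value is no lower bound on the change over all libraries.

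The log2 ratio of Grem1 to Bmp4 counts within a library, a measure of antagonist transcript beside 1 of its ligands, averaged -6.3 at 0 h and 1.7 at 5 days. The groups did not overlap (difference 8, exact permutation p = 0.1, adjusted 0.15). Grem1 passed the low-count filter only through the 5 day libraries, so this separation is no further support for its rise. With 1 Grem1 count at 0 h this size depends on the prior count: it was 6.34 with a prior of 2 counts in place of 0.5, 8.77 without 0 h replicate 1, and 7.47 to 8.44 without any other library. Between the times, markers of other cells moved with the higher Grem1 and Bmp6 levels. The summed CPM of 8 macrophage and monocyte markers lay between 14.4 and 31.6 at 0 h and between 463 and 651 at 5 days, with 8 of 8 called higher, 5 of which reached the low-count filter only through the 5 day libraries. For 6 endothelium markers it lay between 3.37 and 9.9 at 0 h and between 20.3 and 42 at 5 days, with 3 of the 4 tested called higher (Pecam1, Cdh5 and Tek, each past the filter only through the 5 day libraries). For 5 fibroblast and keratocyte markers it lay between 333 and 358 at 0 h and between 968 and 1530 at 5 days, and the list held genes that went opposite ways. Pdgfra, nearly all of the 0 h sum, was called lower (335.4 to 191.6 CPM), and Col1a1, most of the 5 day sum, was called higher (6.572 to 943.4 CPM). Dcn and Lum were also called higher, each past the filter only through the 5 day libraries. The keratocyte gene Kera was at 0 in every library. Corneal and conjunctival keratins summed to 66.8 CPM in 5 day replicate 3, the library with the most Grem1 and Bmp6, against 2.23 CPM or less in the other libraries. Nearly all of that sum was Krt14 (45.77 CPM) and Krt5 (19.93 CPM). Over 5 day replicates 1, 2 and 3 Krt12 was at 1.751, 0 and 1.095 CPM, and Krt13 was at 0 in each. None of these 4 keratins had enough counts to be tested. Over 5 day replicates 1, 2 and 3 the macrophage and monocyte sum was 651, 463 and 513 CPM, highest in replicate 1. The endothelium sum was 25.6, 20.3 and 42 CPM and the fibroblast and keratocyte sum 968, 1000 and 1530 CPM. Both were highest in replicate 3, but so were other sums. These were pigmented iris and ciliary epithelium (12.4, 19.8 and 39.7 CPM), retinal photoreceptor (53.6, 29 and 85.6 CPM) and cell cycle markers (105, 131 and 141 CPM). The lens epithelium sum (13700, 17400 and 6220 CPM) was lowest there, as was Pdgfra (232.7, 211.6 and 130.6 CPM). The part of any of these cell types in the Grem1 and Bmp6 levels was not tested.

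All 4 Id genes fell, and all 4 were called lower under each of the 4 scalings tried. Id2 had the largest log2 fold change of the family. Id2 (ENSMUSG00000020644) stood at 53.47, 67.91 and 42.09 CPM at 0 h and at 10.66, 8.414 and 9.745 CPM at 5 days. The 5 day libraries were close together and far below all 0 h libraries. The mean went from 54.49 ± 12.9 to 9.607 ± 1.13 CPM (n = 3), 5.69-fold lower, with a log2 fold change of -2.51 (SE 0.19, edgeR quasi-likelihood test, Benjamini-Hochberg adjusted p = 5.59e-07).

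Id4, a family member described in other tissues as working against Id1 to Id3, also fell. Id4 (ENSMUSG00000021379) stood at 18.05, 19.64 and 16.21 CPM at 0 h and at 3.819, 6.153 and 3.504 CPM at 5 days. The groups were far apart relative to the spread within each. The mean went from 17.97 ± 1.71 to 4.492 ± 1.45 CPM (n = 3), 3.99-fold lower, with a log2 fold change of -2.0 (SE 0.25, edgeR quasi-likelihood test, Benjamini-Hochberg adjusted p = 3.28e-05).

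Id1 is the member most used as a readout of BMP signalling. Id1 (ENSMUSG00000042745) stood at 28.15, 35.33 and 20.63 CPM at 0 h and at 9.708, 6.781 and 11.06 CPM at 5 days. The nearest libraries of the groups were 0 h replicate 3 and 5 day replicate 3, and they did not overlap. The mean went from 28.03 ± 7.35 to 9.183 ± 2.19 CPM (n = 3), 3.05-fold lower, with a log2 fold change of -1.61 (SE 0.23, edgeR quasi-likelihood test, Benjamini-Hochberg adjusted p = 0.000127).

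Id3 had the smallest log2 fold change of the 4. Id3 (ENSMUSG00000007872) stood at 53.6, 63.42 and 44.71 CPM at 0 h and at 41.7, 38.93 and 35.26 CPM at 5 days. The groups did not overlap, but the lowest 0 h library and the highest 5 day library were close. The mean went from 53.91 ± 9.36 to 38.63 ± 3.23 CPM (n = 3), 1.4-fold lower, with a log2 fold change of -0.48 (SE 0.14, edgeR quasi-likelihood test, Benjamini-Hochberg adjusted p = 0.0123). The call was lost without 0 h replicate 2, where the log2 fold change was -0.36 and the adjusted p 0.0646. With the numbers in the library names as a replicate block it was also lost, at -0.28 with an adjusted p of 0.144. In that block 0 h replicate 2 has no partner and adds nothing to the difference, so these losses are not separate. Over the 15 alternatives the adjusted p ran from 0.00245 to 0.144.

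**Figure D2:**
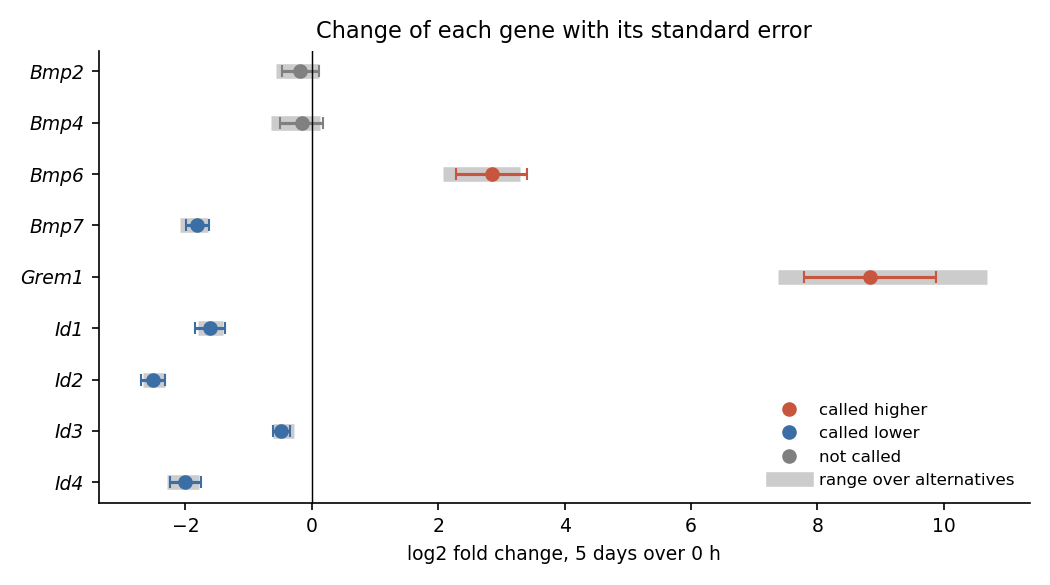
Log2 fold change of 5 days over 0 h (horizontal axis) of the 9 genes, with points for the estimates, bars for the SE and grey bands for the range over the 15 alternatives. The bands of Bmp2 and Bmp4 span 0, Bmp6 and Grem1 lie to the right, and Bmp7 and the 4 Id genes lie to the left.

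The Id genes were also compared with each other as ratios within a library. The log2 ratio of Id2 to Id1 averaged 0.96 at 0 h and 0.09 at 5 days (difference -0.88), and that of Id3 to Id1 averaged 0.96 and 2.09 (difference 1.13). For both ratios the groups did not overlap and the exact permutation p was 0.1, adjusted 0.15. The log2 ratio of Id4 to Id1 averaged -0.61 and -1.04 with overlapping groups (difference -0.43, exact permutation p = 0.5, adjusted 0.6). Within the 0 h group, replicate 2 was the highest library and replicate 3 the lowest for all 4 Id genes.

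The summed CPM of 6 retinal photoreceptor markers lay between 478 and 723 at 0 h and between 29 and 85.6 at 5 days, and all 6 were called lower. It moved in the same direction as Bmp7 and the Id genes between the times, as did 5 of the 8 lens epithelium markers, those called lower. The other lens markers did not: Pax6 was called higher (0.28), and Six3 (0.01) and Sox2 (-0.15) did not pass the test. Among the 0 h libraries the photoreceptor sum was 535, 478 and 723 CPM, so the library with the most photoreceptor RNA had the least Id1, Id2, Id3 and Id4. Bmp7 was highest in that library. Markers of pigmented iris and ciliary epithelium summed to 12.7 to 34 CPM at 0 h and 12.4 to 39.7 CPM at 5 days. The part of photoreceptor RNA, and of the lower lens markers, in the Bmp7 and Id values was not tested.

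Stretches upstream of Id2, Id3 and Id4, which fell together, and of Grem1, which rose, are shown to set side by side the letters before the starts of these genes. They are the 250 bases before the annotated start, 5′ to 3′ on the strand of the gene, from RefSeq on build GRCm38.p6, in which 6 of the 9 genes had an entry (Bmp4, Bmp6, Grem1, Id2, Id3 and Id4). Capitals mark GGCGCC, a GC-rich string known from BMP response elements, and CAGAC or its reverse complement GTCTG, which holds the core letters bound by SMAD proteins. The windows are chr12:25096093-25096342 on the minus strand for Id2, chr4:136143572-136143821 on the plus strand for Id3, chr13:48260866-48261115 on the plus strand for Id4 and chr2:113758649-113758898 on the minus strand for Grem1.
Id2: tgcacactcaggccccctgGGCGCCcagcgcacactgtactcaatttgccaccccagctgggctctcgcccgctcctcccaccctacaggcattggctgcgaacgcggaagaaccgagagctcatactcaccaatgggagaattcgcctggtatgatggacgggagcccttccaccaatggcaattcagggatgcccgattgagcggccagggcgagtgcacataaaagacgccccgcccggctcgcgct
Id3: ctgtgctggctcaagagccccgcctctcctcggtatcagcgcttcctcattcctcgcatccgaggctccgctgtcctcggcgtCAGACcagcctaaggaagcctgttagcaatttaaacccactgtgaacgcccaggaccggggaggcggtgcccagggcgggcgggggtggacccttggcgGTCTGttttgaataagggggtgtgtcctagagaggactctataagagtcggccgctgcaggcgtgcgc
Id4: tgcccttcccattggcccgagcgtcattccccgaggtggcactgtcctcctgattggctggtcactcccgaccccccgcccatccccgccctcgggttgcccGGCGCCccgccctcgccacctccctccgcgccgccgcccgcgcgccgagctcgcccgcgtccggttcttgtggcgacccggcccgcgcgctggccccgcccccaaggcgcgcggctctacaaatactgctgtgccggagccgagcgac
Grem1: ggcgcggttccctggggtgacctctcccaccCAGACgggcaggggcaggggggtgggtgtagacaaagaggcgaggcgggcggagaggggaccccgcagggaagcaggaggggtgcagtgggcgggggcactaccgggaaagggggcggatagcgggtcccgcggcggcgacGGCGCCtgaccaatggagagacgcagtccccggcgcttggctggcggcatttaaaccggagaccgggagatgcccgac
Searched on both strands, GGCGCC stood once in the windows of Id2, Id4 and Grem1 and was not found in that of Id3. CAGAC was matched at 2 places in the window of Id3 and at 1 in that of Grem1, and no marked strings overlap. Of 32851 RefSeq windows of this length 9.6% held GGCGCC and 42.2% held CAGAC. The GC content was 62.8% for Id2 and Id3, 75.6% for Id4 and 72.0% for Grem1, against a median of 52.4% over all windows. These matches describe the letters and are not evidence of binding.

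Divided by exon length (union of annotated exons, GENCODE M21), levels can be set beside each other between genes. At 0 h, Id3 (30.1 ± 5.22 CPM per kb), Bmp7 (28.1 ± 4.58), Id1 (24.2 ± 6.34) and Id2 (22.4 ± 5.31) had the highest levels, and neighbours in this order did not differ beyond their spread (n = 3). Id4 (4.67 ± 0.445), Bmp2 (4.17 ± 0.761) and Bmp4 (3.13 ± 1.02 CPM per kb) followed, again with neighbours within their spread. Bmp6 (0.203 ± 0.152 CPM per kb) and Grem1 (0.0108) were last.

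At 5 days Id3, at 21.6 ± 1.8 CPM per kb, stood above all others. Bmp7 (8 ± 2.09), Id1 (7.92 ± 1.88) and Grem1 (6.06 ± 5.1 CPM per kb) came next and did not differ beyond their spread. Id2 (3.94 ± 0.464), Bmp2 (3.67 ± 1.61) and Bmp4 (2.77 ± 1.15 CPM per kb) lay close together, with Bmp6 (1.45 ± 0.352) and Id4 (1.17 ± 0.376) at the bottom. Grem1 ranged from 1.88 to 11.7 CPM per kb over the 5 day libraries, so its place in this order differed between libraries. Bmp6 and Id4 did not differ beyond their spread.

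Summed per kb, the 4 ligands stood at 30.6, 33.8 and 42.5 CPM per kb at 0 h and at 14.9, 11.3 and 21.5 at 5 days. The groups did not overlap. Bmp7 made up 79 ± 1.27% of this sum at 0 h and 51 ± 3.18% at 5 days (n = 3), Bmp2 11.8 and 22.5%, Bmp4 8.63 and 17.2%, and Bmp6 0.569 and 9.31%. The 4 Id genes summed to 80.8, 98.8 and 64.2 CPM per kb at 0 h and to 37, 32.6 and 34.1 at 5 days. Id3 made up 37.2 ± 1.53% of the Id sum at 0 h and 62.4 ± 4.48% at 5 days, whereas Id2 went from 27.4 ± 0.693 to 11.4 ± 0.688% (n = 3).

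**Figure D3:**
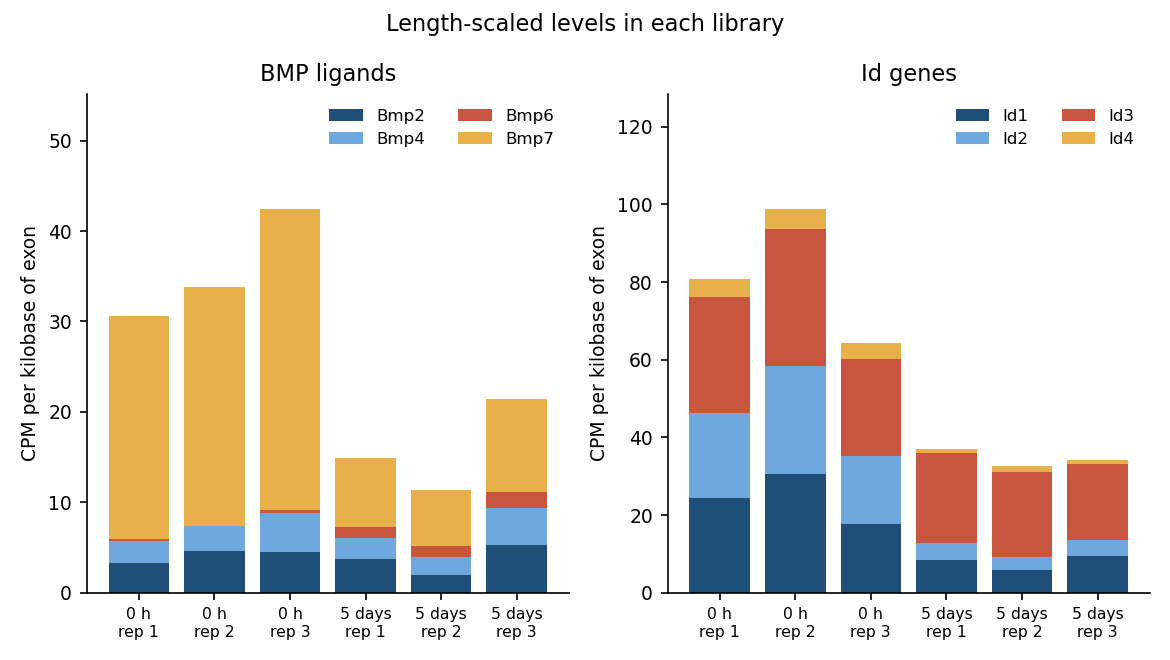
Levels per kilobase of exon (CPM per kb, vertical axis) in each of the 6 libraries, stacked for the 4 ligand genes (left) and the 4 Id genes (right). Both stacks are lower in every 5 day library than in any 0 h library, Bmp7 fills most of the ligand stack at 0 h and Id3 most of the Id stack at 5 days.

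Other tested genes averaging at least 4 in log2 CPM (7345 or 7346 genes) were ranked by likeness, and those whose log2 CPM ran most like a member over the 6 libraries were found by Pearson's r. For Id2 they were Birc2 (r = 0.9989), Mrpl30 and Nptxr. They were Hist1h2bc (0.996), Ggta1 and F11r for Id1, Lin7c (0.9974), Tprgl and Setd3 for Id3, and Tef (0.9991), Dnajb2 and Eif4a2 for Id4. Grem1 was nearest to Uggt1 (0.9983), Piezo1 and Ckap4, and Bmp6 to Cant1 (0.9975), Rabgap1l and Qsox2. The libraries form 2 groups, so a gene that differs between the times resembles many others: 960 genes reached r of at least 0.95 with Grem1 and 863 with Id4. Bmp2 and Bmp4, which did not pass the test between the times, had 7 and 5 such genes, led by Col23a1 (0.975), Chmp6 and Sec13 for Bmp2 and by Srgap3 (0.9765), Col6a2 and Nsa2 for Bmp4.

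Of 60 other listed genes of the pathway 40 had enough counts to be tested, of which 17 were higher, 13 lower and 10 not called, with a median log2 fold change of 0.16. For 34 of the 40 the groups did not overlap. Over all tested genes the shares were 47.6% called, 25.1% higher, 22.5% lower and 58.1% not overlapping, and the counts by role below stand beside these shares. Of the genes called, 3 reached the low-count filter only through the 5 day libraries (Fst, Eng and Acvrl1) and could enter the test only as genes high there, and 3 only through the 0 h libraries where they were high (Sostdc1, Smad9 and Bmpr1b). None of the 9 other ligand genes (Bmp3, Bmp5, Bmp8a, Bmp8b, Bmp10, Gdf2, Gdf5, Gdf6 and Gdf7) reached the filter at either time. Members named below beyond the highest and the most changed of each role were chosen after their values were seen.

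Of 14 other secreted antagonists and modulators 8 were tested, with 2 higher and 4 lower (median -0.18). Follistatin (Fst), which binds activins and some BMPs, stood at 0, 0 and 0.7154 CPM at 0 h and at 35.81, 41.06 and 29.23 CPM at 5 days. All 5 day libraries were far above, with a log2 fold change of 7.11 (SE 0.48, edgeR adjusted p = 2.15e-07). The fitted fold over all libraries was 138. The 6 counts at 0 h were all in replicate 3. With that library left out, Fst was at least 193.1-fold higher with the same floor, and the fitted log2 value was 11.14. This floor covers counting error only and is no lower bound on the change over all libraries. Without 0 h replicate 2 the fitted value was 6.48.

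The antagonist Chrdl1 rose from 228.6 ± 30.9 to 369 ± 30.3 CPM (n = 3, log2 fold change 0.69, edgeR adjusted p = 0.000419). Sostdc1 fell from 4.368 ± 0.595 to 0.7723 ± 0.343 CPM (-2.48, SE 0.46, edgeR adjusted p = 0.000832). Bmper, an extracellular BMP-binding modulator, fell from 34.29 ± 5.96 to 8.645 ± 0.322 CPM (-1.98, edgeR adjusted p = 1.97e-06). The gene with the highest CPM of this list, not scaled by length, was Crim1, a membrane protein that binds BMPs, at 3487 ± 26.5 and 2681 ± 286 CPM (log2 fold change -0.38, SE 0.13, edgeR adjusted p = 0.0277). Its call was lost in 5 of 15 alternatives, among them without 0 h replicate 2 (-0.38, edgeR adjusted p = 0.0623) and without 0 h replicate 3 (-0.38, edgeR adjusted p = 0.077). Noggin (Nog), the classical antagonist, averaged 0.3648 and 0.2993 CPM and was not tested.

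Of 6 processing enzymes 5 were tested, with 4 higher and 1 lower (median 1.78). Bmp1, which despite its name is a protease that cleaves chordin and procollagens, rose from 191.4 ± 9.22 to 2037 ± 180 CPM (n = 3, log2 fold change 3.41, SE 0.12, edgeR adjusted p = 3.28e-09). Of its relatives, Tll1 rose from 4.179 to 22.89 CPM (2.43, edgeR adjusted p = 2.01e-05) and Tll2 fell from 8.763 to 2.623 CPM (-1.72, SE 0.3, edgeR adjusted p = 0.000437). Furin and Pcsk5, convertases that cut precursor proteins, rose by 1.75 and 1.78 on the log2 scale.

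Of 11 receptors and co-receptors 10 were tested, with 4 higher and 3 lower (median -0.02). Bmpr2, the main type II receptor, had the highest CPM of the list and rose from 225.3 ± 16.3 to 358.2 ± 13.9 CPM (n = 3, log2 fold change 0.67, SE 0.1, edgeR adjusted p = 0.000123). The type I receptor gene Acvr1 rose by 1.91 while Bmpr1a did not pass the test (0.1). Acvr2b, a type II receptor of activins and BMPs, fell from 53.47 ± 3.89 to 13.98 ± 1.66 CPM (-1.93, SE 0.14, edgeR adjusted p = 3.02e-07).

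The endothelial co-receptor Eng and the receptor Acvrl1 rose by 3.96 and 2.94 from 1.073 CPM or less in each 0 h library, and 3 of 4 tested endothelium markers were also called higher. All these calls are of genes that passed the filter only through the 5 day libraries. Whether endothelial cells carried these transcripts was not tested. Without 0 h replicate 3 the value of Eng was 4.82. Bmpr1b, at -1.34 with an edgeR adjusted p of 0.0433, lost its call in 11 of 14 alternatives. Among these were all libraries left out in turn except 0 h replicate 1, with values of -1.54 to -1.06.

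Of 6 SMAD and SMURF genes all were tested, with 2 higher and 1 lower (median 0.25). Smad9 fell from 6.021 ± 0.683 to 0.5962 ± 0.383 CPM (n = 3, log2 fold change -3.23, SE 0.47, edgeR adjusted p = 0.000131), while Smad1 (0.31) and Smad5 (0.01) did not pass the test. Smurf1, a ubiquitin ligase that targets SMAD1 and SMAD5, rose from 24.19 ± 2.44 to 90.99 ± 7.78 CPM (1.91, SE 0.12, edgeR adjusted p = 1.13e-07). Smad4, the partner of all receptor SMADs, went from 63.89 ± 5.54 to 77.56 ± 2.65 CPM (0.28, SE 0.1, edgeR adjusted p = 0.0385). Its call was lost in 8 of 15 alternatives, among them without 0 h replicate 1 (0.21), 0 h replicate 2 (0.26), 5 day replicate 1 (0.25) or 5 day replicate 2 (0.28).

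Of 9 feedback inhibitors and other targets 8 were tested, with 2 higher and 4 lower (median -0.79). The inhibitory SMADs went opposite ways: Smad6, which acts mainly on BMP signals, fell from 36.22 ± 1.28 to 18.33 ± 1.22 CPM (n = 3, log2 fold change -0.98, edgeR adjusted p = 5.1e-05). Smad7, which acts on both BMP and TGF-beta signals, rose from 48.84 ± 1.19 to 87.21 ± 13.2 CPM (0.84, SE 0.12, edgeR adjusted p = 0.000112). The homeobox gene Msx2 fell from 23.98 ± 0.458 to 4.863 ± 1.62 CPM (-2.31, SE 0.23, edgeR adjusted p = 6.12e-06), and Msx1 fell by 1.09. Runx2, a transcription factor of bone formation, rose from 1.935 ± 0.426 to 51.21 ± 7.22 CPM (4.72, SE 0.2, edgeR adjusted p = 8.42e-09). Bambi, a decoy receptor, was at -0.76 and did not pass (edgeR adjusted p = 0.0588). It passed without 0 h replicate 1 (-0.94, edgeR adjusted p = 0.0383) and without 5 day replicate 3 (-1.09, edgeR adjusted p = 0.00926).

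The E protein genes, whose products Id proteins bind, moved little and upward. All 3 tested of the 5 listed partners were higher (median 0.36), Tcf12 by 0.63 (SE 0.1, edgeR adjusted p = 0.000176), Tcf4 by 0.36 and Tcf3 by 0.35. Tcf4 had the highest CPM, at 202 ± 16.6 and 259.5 ± 20.7 CPM (n = 3). The call of Tcf4 was lost without 0 h replicate 2 (0.29, edgeR adjusted p = 0.0747) and that of Tcf3 without 0 h replicate 3 (0.27, edgeR adjusted p = 0.0881). Twist1, a basic helix-loop-helix factor of mesenchymal cells, was not tested, with 3 counts at 0 h and 33 at 5 days over the 3 libraries each (ratio 11.73, 95% counting interval 3.679 to 59.77).

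**Figure D4:**
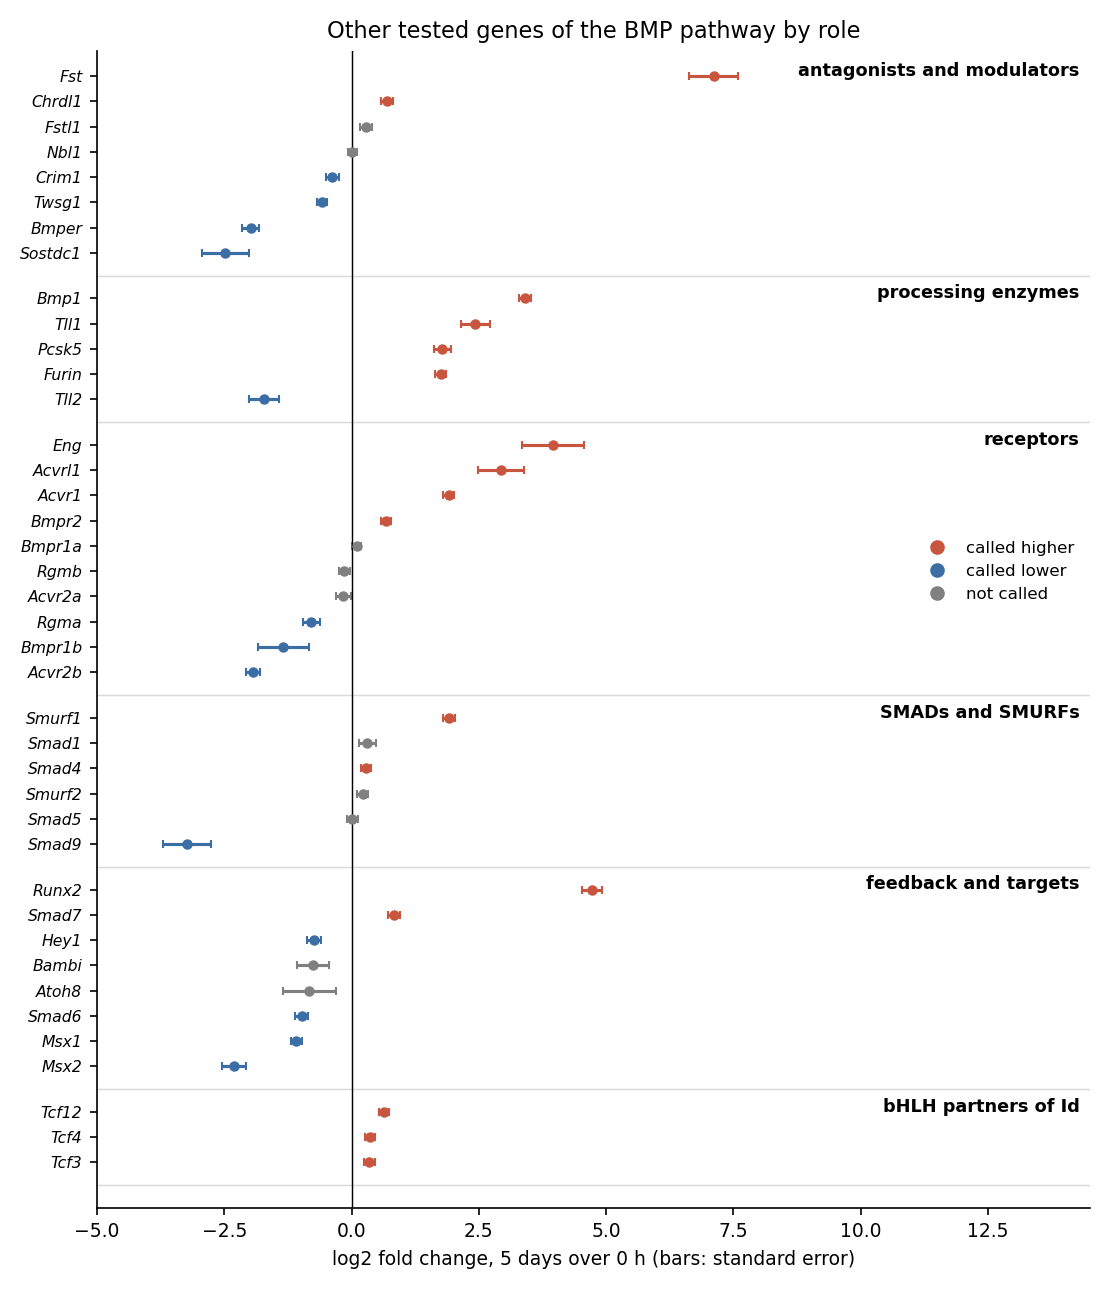
Log2 fold change of 5 days over 0 h (horizontal axis) of the 40 tested genes of the BMP pathway outside the 9 members, grouped by role, with bars for the SE and colours for genes called higher, called lower or not called. The enzymes lie mostly to the right of 0, and the other roles hold genes on both sides except the 3 partners of Id proteins.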

How the data were processed

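The authors deposited raw counts per Ensembl gene for 6 libraries. The submitters' processing notes name HISAT2, HTSeq, edgeR and build GRCm39. Strand setting and tool versions: not given in the sources used here. The kit, per the labels' protocols, was a stranded total RNA kit (SMARTer Pico). HTSeq summary entries (32.26 to 42.55% of reads) were left out. Symbols and exon lengths came from GENCODE M21 (GRCm38, 91.23% of genes), whose coordinates served only to find overlapping genes.

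Genes were filtered (filterByExpr, minimum count 10), TMM-scaled and tested with edgeR 4.0.16 (R 4.3.3), quasi-likelihood, all 6 libraries, Benjamini-Hochberg over 14676 genes, threshold 0.05. Ratios used a prior of 0.5 counts and exact permutation. The test was checked on simulated counts, in which far fewer genes changed than were called here, and by smaller folds than those of Grem1 and Bmp6. Alternatives were DESeq2 size factors, total library size, TMM without crystallin and mitochondrial genes, no filter, 2 CPM in 3 libraries, DESeq2 1.42.0, limma-voom 3.58.1, 2 replicate blocks and each library left out. Named genes were all members, the highest and most changed called gene of each pathway role, and the 3 genes most like each member (for Bmp7 not reported here). The members and lists were chosen with earlier results of these data known. Promoter windows came from RefSeq.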

Additional observations from a re-analysis of the deposited data

How the results depend on the processing

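Across 15 alternatives Bmp6 and Grem1 stayed called higher and Bmp7, Id1, Id2 and Id4 called lower in each; Id3 lost its call with the replicate block by library name number (-0.28) and without 0 h replicate 2. Log2 fold changes ran from 2.08 to 3.3 for Bmp6, 7.38 to 10.69 for Grem1, -2.08 to -1.64 for Bmp7, -1.8 to -1.41 for Id1, -2.67 to -2.32 for Id2, -0.61 to -0.28 for Id3 and -2.29 to -1.78 for Id4. The replicate block by library name gave the lowest Bmp6 (2.08) and Grem1 (7.38) values. In that block 0 h replicate 2 and 5 day replicate 3 share their number with no library of the other time. These libraries therefore add nothing to the difference between the times, and the 2 losses of the Id3 call are not separate. Limma-voom gave 7.86 for Grem1, and the cause was not tested. With each library left out in turn, Bmp2 ran from -0.56 to 0.12, Bmp4 from -0.58 to 0.13 and the Bmp4 to Bmp2 ratio difference from -0.1 to 0.25, so their sign depended on the libraries used. Same-numbered samples deviated with correlations of 0.042, -0.09 and 0.061 by title number, and of 0.042 and 0.007 by library name number, none over 0.1. Such correlations over 3 libraries a group cannot tell whether the numbers pair pools. The numbers were not taken as pairs because the labels do not say which pools share mice. The replicate block by title number called 6738 genes and that by library name 5768, against 6984 without, and the range over all alternatives was 5768 to 7535. Total library size moved log2 fold changes by a median of 0.13 and made 62.9% of calls higher, against 52.7%. Pathway genes called higher numbered 16 to 20 and lower 11 to 15. Depth limits Bmp6 and Grem1, with 8, 1 and 10 and with 1, 0 and 0 counts at 0 h, and 3 libraries a group limit the exact tests.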
